A study of Bos taurus with 8 samples.

Results

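*ASIP*, its neighbours on bovine chromosome 13 (*RALY*, *EIF2S2*, *AHCY* and *ITCH*) and the agouti accessory genes *ATRN* and *MGRN1* were examined in RNA-seq data from single-cell preadipocyte clones of Angus cross steers. These 7 genes were taken by name from a table of 18871 named genes. *ASIP* was included because its read counts were high in subcutaneous and very low in intramuscular clones, so its own values are given as a description without a test. The other 6 genes were taken for their position or function, and the question was whether the difference between the depots extends to them. All clones came from adult male animals, and the labels name no genotype or agent that differs between the groups. The IMF group held 4 clones, IMF1 to IMF4, each from a stromal vascular fraction sample of intramuscular fat. The SF group held 4 clones, SF1 to SF4, each from a stromal vascular fraction sample of subcutaneous fat. Each library is therefore 1 clone, picked by the study for fast growth, adipogenic potential and a fibroblast-like shape, and it stands for the cells that survive cloning rather than for the depot. The sources differ on whether the clones had been induced to form adipocytes before sequencing and on the number of steers, and which steer each clone came from is not stated.

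*ASIP* encodes agouti signalling protein, a secreted factor that blocks melanocortin receptors. In skin it is made by dermal mesenchyme and acts on the receptor MC1R of melanocytes, which lowers cAMP and shifts pigment synthesis from eumelanin to pheomelanin. Attractin, the product of *ATRN*, is a membrane protein that agouti signalling requires, and *MGRN1* encodes mahogunin, a ubiquitin ligase whose loss gives mice a similar dark coat. *RALY* encodes an RNA-binding protein, *EIF2S2* the beta subunit of translation initiation factor eIF2, *AHCY* the enzyme that hydrolyses S-adenosylhomocysteine, and *ITCH* a HECT-type ubiquitin ligase named after the itchy mouse. In the lethal yellow mouse a deletion puts agouti under the control of the *Raly* promoter, which is why the genes beside *ASIP* are of interest when its level differs between tissues.

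In the ARS-UCD2.0 assembly as annotated by RefSeq, *ASIP* lies on chromosome 13 at 63639821 to 63668127. *RALY* is at 63374679 to 63464858, and *EIF2S2* follows after 7.1 kb at 63471971 to 63490553. A gap of 149.3 kb separates *EIF2S2* from *ASIP*. On the other side *AHCY*, at 63686719 to 63702437, starts 18.6 kb beyond *ASIP*, and *ITCH*, at 63785090 to 63885035, starts 82.7 kb beyond *AHCY*. *ATRN* is on the same chromosome but 11908 kb away, at 51545361 to 51731831, and *MGRN1* is on chromosome 25 at 3755152 to 3791830. An annotated small nucleolar RNA gene lies within the span of *ASIP*. Reads were counted over whole genes, so exons and promoters of *ASIP* could not be told apart.

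Reads counted on named genes numbered 19654917 to 29308882 per clone. Levels are given as CPM, the counts scaled to a common library size after TMM normalization, and 3 counts corresponded to 0.0981 to 0.165 CPM. No 2 clones of a group agreed within sampling noise, where the chi-square of their counts per degree of freedom would be near 1; it was 50.18 to 149.92. The spread between clones was smaller in IMF (median CV 7.44%) than in SF (15%) over 9891 genes with at least 100 counts in every clone. Genes were compared with edgeR's quasi-likelihood test, two-sided, with Benjamini-Hochberg adjustment over the 18339 genes with at least 20 counts in total. A gene was called when its adjusted p was under 0.05 and its log2 fold change, IMF over SF, was at least 1 in size. Stromal markers were high in both groups, with a summed level of 31900 to 33400 CPM over 8 genes in IMF and of 53300 to 60900 CPM in SF. Most of that sum was *COL1A1* and *COL1A2*, the collagen I genes, which were higher in SF, whereas *PDGFRA* was higher in IMF (log2 fold change 0.49, adjusted p = 0.0214, above 0.05 without IMF1, IMF2 or IMF3); the median log2 fold change of the list was -0.01. The 5 adipocyte markers tested summed to 16.7 to 18.5 CPM in IMF and 7.86 to 13.3 CPM in SF and went both ways. *FABP4*, a fatty acid binding protein gene, was called higher in IMF (9.63 ± 1.86 against 0.178 ± 0.207 CPM) and carried the difference in the sum, and *PPARG*, the adipogenic nuclear receptor gene, was called higher in SF (1.23 ± 0.244 against 3.13 ± 0.538 CPM). Markers of other cells also moved with the group. All 8 myogenic and all 8 endothelial markers were higher in every IMF clone than in any SF clone, with summed levels of 762 to 881 against 0.751 to 31.4 CPM and of 277 to 300 against 2.72 to 4.35 CPM; *MYOD1*, *MYOG*, *KDR* and *SELE* had no count in any SF clone. The 6 leukocyte markers tested summed to 17.4 to 40.2 CPM in IMF and to 47.6 to 82.6 CPM in SF. *PTPRC*, named outside the naming rule, was the largest part of the SF sum (33.3 ± 11.3 CPM, against 9.68 ± 7.28 CPM in IMF). Every SF clone stood above every IMF clone for *PTPRC*, but it was not called (log2 fold change -1.79, adjusted p = 0.0518). It was called without IMF1 or IMF2, with clone number as a replicate block, and by limma-voom and DESeq2. *CD3E* was called higher in SF (log2 fold change -1.33, adjusted p = 0.0415), a call lost without IMF1, IMF2, IMF3, SF1, SF2 or SF4 (adjusted p 0.0507 to 0.103), and *CD14* was called higher in IMF (log2 fold change 1.48, adjusted p = 0.0026). The part of these cell type markers in the results that follow was not tested. In these bulk libraries fewer cells expressing a gene and less RNA per cell cannot be told apart.

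*ASIP* was detected in every SF clone and was near the counting limit in every IMF clone. Its read counts were 489, 913, 573 and 873 in SF1 to SF4 and 4, 5, 1 and 3 in IMF1 to IMF4. These correspond to 25.1, 45.7, 23.3 and 48.1 CPM in SF and to 0.192, 0.164, 0.0453 and 0.143 CPM in IMF. The groups lay far apart, and the lowest SF clone was 121-fold above the highest IMF clone. Mean levels were 35.5 ± 13.2 CPM in SF and 0.136 ± 0.0636 CPM in IMF (SD, n = 4 each), a ratio of 262. Pooling the reads of each group gave 13 counts in IMF and 2848 in SF, a ratio of 252 with a 95% counting interval of 147 to 473. The pooled IMF level was 0.138 CPM, with a 95% Poisson interval of 0.0733 to 0.235 CPM. Both intervals cover counting error only.

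Among the SF clones *ASIP* fell into a lower pair, SF1 and SF3, and a higher pair, SF2 and SF4, with the highest clone 2.07-fold above the lowest. Its CV across SF clones was 37.1%, at the 93.2 percentile of the 4949 genes whose SF mean was within 2-fold of its own, which had a median CV of 11.8%. Of these 4949 genes, 2 had an IMF mean under 0.5 CPM, *ASIP* and *KCNJ5*, a potassium channel gene that averaged 34.0 CPM over the SF and 0.024 CPM over the IMF clones. *KCNJ5* was named after its values were seen. Of the 15111 genes with an SF mean of at least 1 CPM, 67 were at least 10-fold higher in SF by the ratio of means and 7 at least 100-fold, *ASIP* among them.

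**Figure D1:**
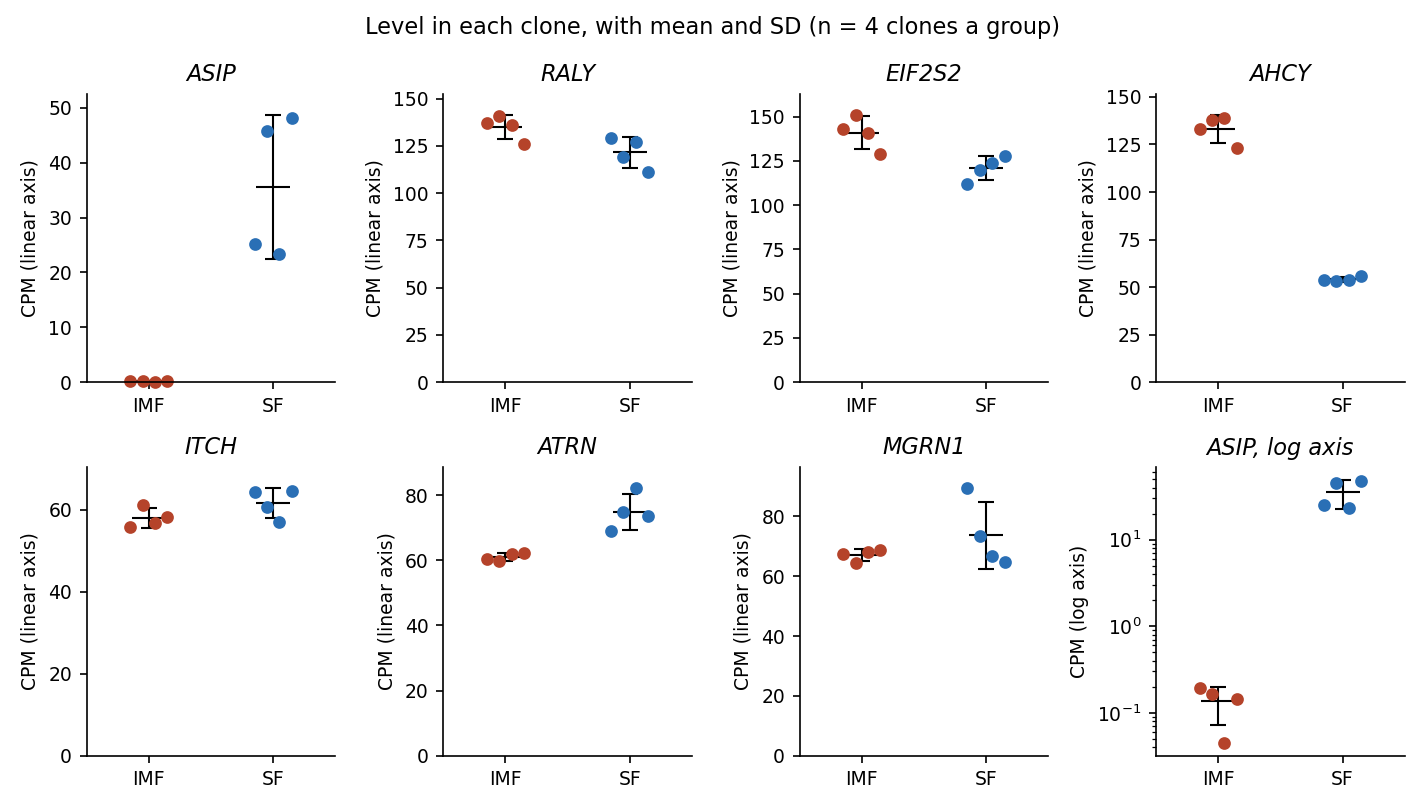
Level of *ASIP*, *RALY*, *EIF2S2*, *AHCY*, *ITCH*, *ATRN* and *MGRN1* in each clone in CPM (points), with the mean (horizontal bar) and SD (error bars) of the 4 IMF and 4 SF clones. Axes are linear and start at 0, except in the last panel, which repeats *ASIP* on a log axis; the SF clones lie at 23.3 to 48.1 CPM for *ASIP* and the IMF clones at 0.0453 to 0.192, whereas for *AHCY* the IMF clones are the higher ones.

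Per kb of gene length, the scale on which different genes can be compared, *ASIP* in SF stood among the more abundant members. Its SF level was 47.0 ± 17.4 CPM per kb, at the 93.9 percentile of all tested genes. In SF the order was *EIF2S2* at 85.2 ± 4.75, *ASIP*, *RALY* at 44.7 ± 2.97, *AHCY* at 25.4 ± 0.585, *MGRN1* at 22.1 ± 3.35, *ITCH* at 9.91 ± 0.575 and *ATRN* at 8.49 ± 0.616 CPM per kb. *ASIP* and *RALY*, *AHCY* and *MGRN1*, and *ITCH* and *ATRN* overlapped in their clone values, so these neighbours in the order did not differ beyond their spread. In IMF the order was *EIF2S2* at 99.2 ± 6.62, *AHCY* at 62.6 ± 3.49, *RALY* at 49.7 ± 2.22, *MGRN1* at 20.2 ± 0.584, *ITCH* at 9.32 ± 0.393 and *ATRN* at 6.92 ± 0.136 CPM per kb, with *ASIP* last at 0.18 ± 0.0842, at the 12.6 percentile of all genes. No neighbours in the IMF order overlapped. In SF the *AHCY* level per kb was 0.759, 0.413, 0.82 and 0.413 times that of *ASIP* in SF1 to SF4, so that *ASIP* was the more abundant of these adjacent genes in each SF clone. In IMF *AHCY* was the more abundant of the pair in each clone.

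**Figure D2:**
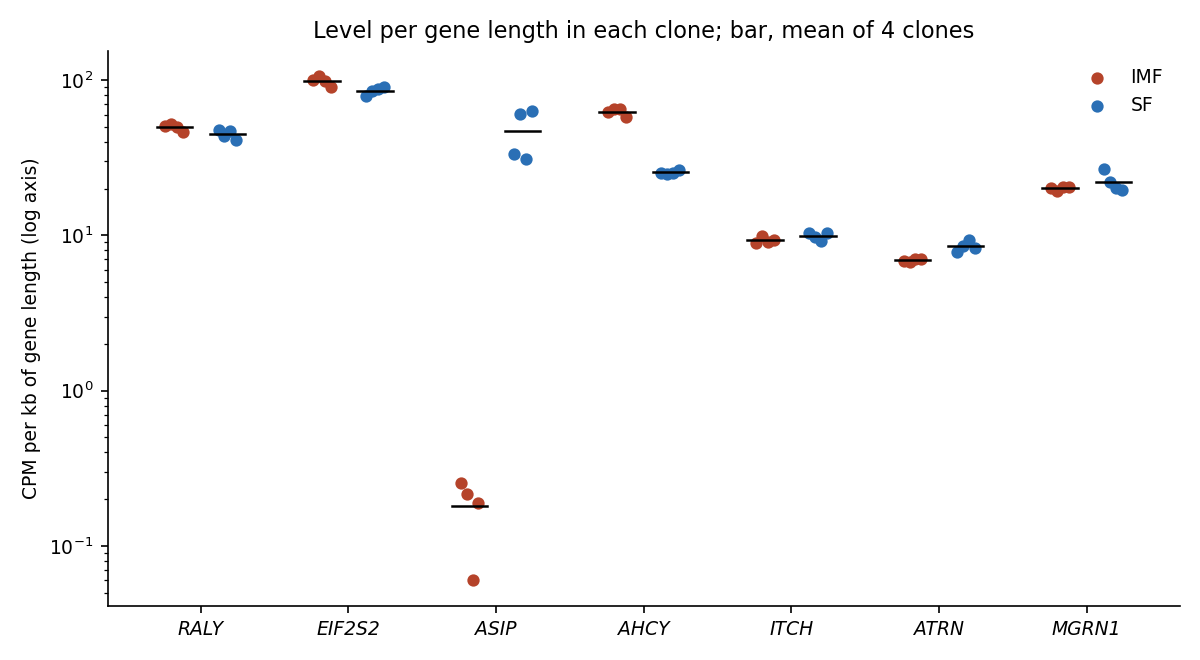
CPM per kb of deposited gene length (log axis) for each member in each IMF and SF clone (points), with the mean of 4 clones (bar). *ASIP* lies at 47.0 CPM per kb in SF and 0.18 in IMF, and the group means of each other member lie within a factor of 2.46.

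*RALY* and *EIF2S2*, which lie next to each other on one side of *ASIP*, were abundant in all clones and were not called. *RALY* had 137, 141, 136 and 126 CPM in IMF1 to IMF4 and 129, 119, 127 and 111 CPM in SF1 to SF4, and the groups overlapped. The means were 135 ± 6.04 and 122 ± 8.08 CPM (SD, n = 4 each). Its log2 fold change was 0.15 (SE 0.08, 95% interval -0.02 to 0.33, adjusted p = 0.182), so a 2-fold difference lay outside the interval in either direction. *EIF2S2* had 143, 151, 141 and 129 CPM in IMF and 112, 120, 124 and 128 CPM in SF, with no overlap and the IMF clones on top. The log2 fold change of 0.22 (SE 0.08, 95% interval 0.04 to 0.40) missed the threshold with an adjusted p of 0.0764. The ratio of *RALY* to *EIF2S2* per kb was 0.502 ± 0.0121 in IMF and 0.527 ± 0.0604 in SF. Neither gene stood higher in SF, where *ASIP* did.

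*AHCY*, the nearest protein-coding neighbour on the other side, was higher in IMF. It had 2779, 4210, 3070 and 2579 counts in IMF1 to IMF4 and 1045, 1062, 1322 and 1015 in SF1 to SF4. In CPM these were 133, 138, 139 and 123 in IMF and 53.6, 53.2, 53.6 and 55.9 in SF. The SF clones lay close together and far below every IMF clone. Mean levels were 133 ± 7.42 and 54.1 ± 1.24 CPM (SD, n = 4 each), a ratio of 2.46. The log2 fold change was 1.30 (SE 0.07, 95% interval 1.15 to 1.45, adjusted p = 9.19e-06). Measured against *EIF2S2*, the *AHCY* level per kb was 0.632 ± 0.0223 in IMF and 0.299 ± 0.0136 in SF. *AHCY* was the 1 of the 6 members beside *ASIP* that was called; of all genes tested 8.82% were called, 4.78% higher in IMF and 4.04% higher in SF.

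*ITCH*, beyond *AHCY*, had 55.7, 61.3, 56.8 and 58.3 CPM in IMF and 64.4, 60.6, 57.1 and 64.6 CPM in SF. The groups overlapped and the means were 58.0 ± 2.44 and 61.7 ± 3.58 CPM. The log2 fold change was -0.09 (SE 0.07, 95% interval -0.24 to 0.07, adjusted p = 0.393), and the sign turned to 0.06 when libraries were scaled by total counts alone. That scaling raised the median of the log2 fold changes over all genes by 0.15.

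The accessory genes differed by less than 2-fold between the groups. *ATRN* had 60.4, 59.7, 62.0 and 62.2 CPM in IMF1 to IMF4 and 68.9, 74.9, 82.1 and 73.7 CPM in SF1 to SF4, with all SF clones above all IMF clones. Means were 61.1 ± 1.2 and 74.9 ± 5.44 CPM, and the log2 fold change was -0.29 (SE 0.07, adjusted p = 0.0159), past the p threshold but well under a 2-fold difference. With total counts alone it was -0.15 with an adjusted p of 0.328. *MGRN1* had 67.4, 64.3, 68.0 and 68.7 CPM in IMF and 89.4, 73.6, 66.8 and 64.9 CPM in SF. SF1 was the highest clone and the other SF clones spread around the IMF values, with means of 67.1 ± 1.94 and 73.7 ± 11.1 CPM. Its log2 fold change was -0.13 (SE 0.11, 95% interval -0.38 to 0.11, adjusted p = 0.396), with a sign that turned to 0.01 under total counts alone. Of the 6 members beside *ASIP*, 2 had an adjusted p under 0.05 at any fold, *AHCY* and *ATRN*, where 25.8% of all genes did. The groups did not overlap for 3 of the 6, *EIF2S2*, *AHCY* and *ATRN*, where 32.1% of all genes did not.

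The same comparison was then made for every gene in the table that could be placed within 1 Mb of *ASIP*. RefSeq positions were found for 14412 of the 18871 named genes, and genes without a position could not enter the window. The annotation holds 57 genes there, 38 of them protein-coding, and 31 were in the table and tested. None of the 31 was called higher in SF by edgeR, DESeq2 or limma-voom, and 5 were higher in SF at an unadjusted p under 0.05. The lowest log2 fold change was -0.60, for *MMP24OS*, a transcript annotated on the strand opposite *MMP24*, with an adjusted p of 0.0253; it was named after its values were seen, and without IMF1, IMF3, IMF4 or SF2 or with total counts alone it did not pass. The 95% interval of the log2 fold change lay within -1 and 1 for 24 of the 31 genes and reached past -1 for 4. Leaving out genes with fewer than 100 counts in total kept 29 genes, 24 of them with an interval within -1 and 1. Over the 31 genes 12 had an adjusted p under 0.05, 7 higher in IMF and 5 higher in SF, where 25.8% of all genes had one. The median log2 fold change was 0.14 and the median size 0.31, beside -0.03 and 0.38 over all genes tested.

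Of the 31 genes 3 were called, all higher in IMF, and these were *AHCY*, *GGT7* and *ACSS2*. A share this size is near the 8.82% of all genes that were called, so the number of calls does not set the region apart. *GGT7*, a member of the gamma-glutamyltransferase family 491.2 kb from *ASIP*, had 80, 121, 91 and 54 counts in IMF and 2, 3, 14 and 3 in SF. Mean levels were 3.62 ± 0.712 CPM (IMF) and 0.247 ± 0.216 CPM (SF), and the log2 fold change was 3.80 (SE 0.50, adjusted p = 0.00106). SF3 was the highest SF clone, and without it the change was 4.62. *ACSS2*, 518.7 kb away, encodes an acetyl-CoA synthetase and had 284, 393, 293 and 286 counts in IMF and 12, 56, 30 and 26 in SF. It averaged 13.3 ± 0.363 CPM in the IMF and 1.52 ± 0.924 CPM in the SF clones (log2 fold change 3.13, SE 0.36, adjusted p = 0.000644). For both genes the lowest IMF clone exceeded the highest SF clone, the reverse of *ASIP*.

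Within 0.5 Mb, 13 genes were tested. Besides the members and *GGT7* these were *PXMP4*, *ZNF341*, *CHMP4B*, *DYNLRB1*, *MAP1LC3A*, *PIGU*, *TP53INP2* and *NCOA6*. *MAP1LC3A*, an LC3 gene of autophagy, was higher in each SF clone (35.1 to 46.3 CPM) than in any IMF clone (25.5 to 28.7 CPM), with a log2 fold change of -0.54 (SE 0.10, adjusted p = 0.00452). *ZNF341*, a zinc finger gene, was higher in IMF by 0.57 (SE 0.12, adjusted p = 0.0101). *DYNLRB1*, a dynein light chain gene, had a log2 fold change of -0.31 (SE 0.09, adjusted p = 0.0326), and its adjusted p was 0.0527 to 0.0868 without IMF1, IMF3, IMF4, SF2 or SF4 and 0.32 with total counts alone. The log2 fold changes of the others were 0.05 for *PXMP4*, 0.08 for *CHMP4B*, 0.19 for *PIGU*, 0.30 for *TP53INP2* and 0.06 for *NCOA6*, with adjusted p between 0.158 and 0.933; without SF4 *TP53INP2* had an adjusted p of 0.0371. On the widest window, 2 Mb, 56 genes were tested and 5 were called, a share near the 8.82% of all genes, from which nothing is read about the window. Beyond 1 Mb these were *SCAND1*, 1417.4 kb away and higher in IMF by 1.14, and *MYL9*, a myosin light chain gene 1979.8 kb away and higher in SF (log2 fold change -1.34, SE 0.22, adjusted p = 0.00328), both named after their values were seen.

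**Figure D3:**
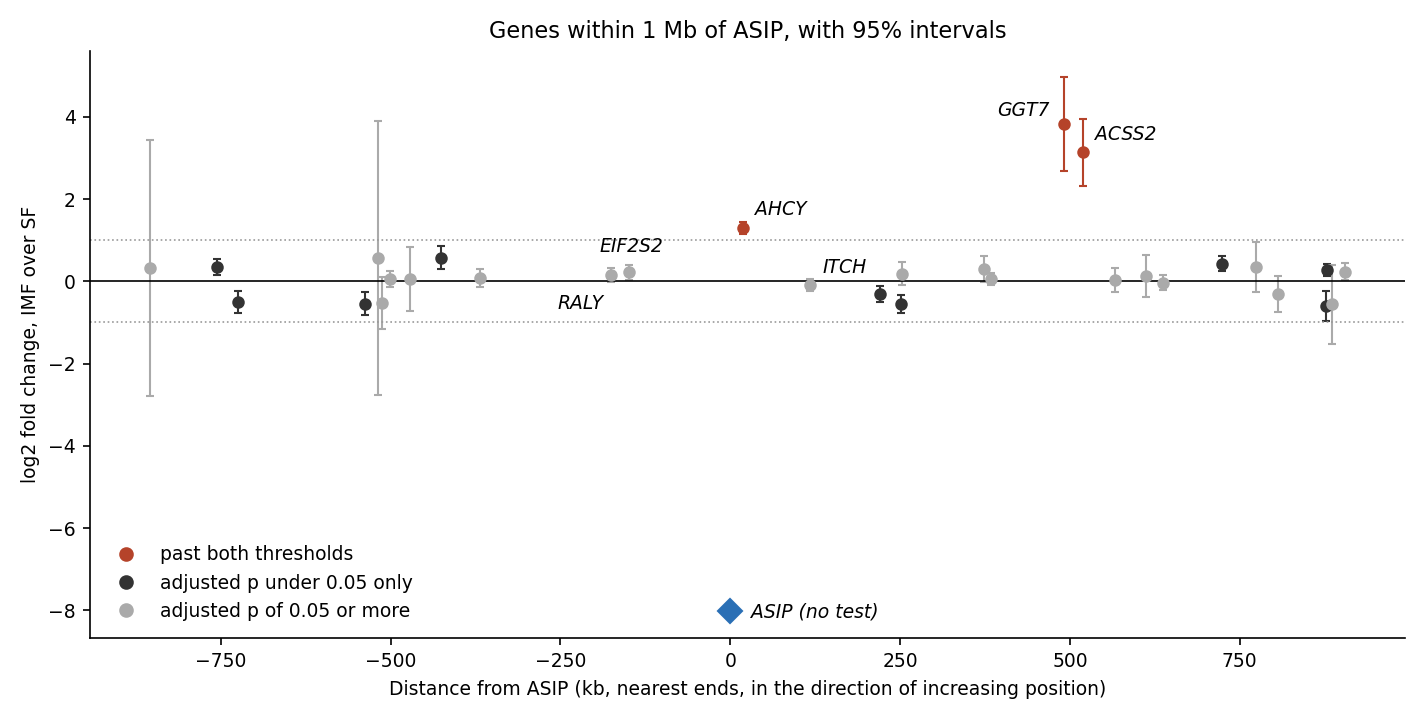
Log2 fold change, IMF over SF, with 95% interval for the 31 genes tested within 1 Mb of *ASIP*, against distance from *ASIP* in kb between nearest ends (0 is *ASIP* itself, shown without a test). Dotted lines mark -1 and 1; *AHCY*, *GGT7* and *ACSS2* lie above 1 and none of the 31 genes is called below -1.

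The wider melanocortin system was examined with a list of 17 genes for ligands, receptors, processing enzymes and accessory proteins, of which 8 were tested. *ATRNL1* and *SDC3* were called, both higher in SF, 2 of the 8 where 4.04% of all genes were called in that direction. *ATRNL1*, the paralogue of *ATRN*, had 53, 75, 59 and 48 counts in IMF1 to IMF4 and 190, 354, 433 and 258 in SF1 to SF4. That is 2.49 ± 0.164 against 14.8 ± 3.74 CPM, with a log2 fold change of -2.57 (SE 0.19, adjusted p = 7.82e-05). Per kb it remained scarcer than *ATRN* in SF, at 1.59 against 8.49 CPM per kb. *SDC3*, a cell surface proteoglycan that modulates agouti-related protein in the brain, had 342, 516, 399 and 334 counts in IMF and 1496, 979, 2574 and 922 in SF. It stood at 16.8 ± 0.937 and 70.3 ± 26.1 CPM, with a log2 fold change of -2.06 (SE 0.23, adjusted p = 0.000576).

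The ligands *POMC* and *AGRP* and the receptor gene *MC1R* were detected at mean levels of 1.46 to 5.85 CPM and were not called. *MC1R* had 25, 90, 57 and 0 counts in IMF and 42, 48, 31 and 56 in SF, so IMF4 had none and IMF2 the most. The change was -0.39 on the log2 scale (SE 0.87, adjusted p = 0.787), an error too wide to show a 2-fold difference. *POMC*, the precursor of the melanocortin hormones, had 124, 208, 111 and 118 counts in IMF and 41, 10, 173 and 127 in SF (log2 fold change 0.49, adjusted p = 0.624). *AGRP*, the relative of *ASIP* known from the hypothalamus, had 12, 138, 0 and 287 counts in IMF and 33, 20, 35 and 31 in SF. Its log2 fold change was 1.68 (SE 1.17, adjusted p = 0.346), and the IMF clones differed more among themselves than the groups did. *CPE*, a prohormone-processing carboxypeptidase, had 130, 212, 140 and 112 counts in IMF and 38, 12, 69 and 88 in SF, with a log2 fold change of 1.29 (SE 0.49) and an adjusted p of 0.0916 by edgeR, not past the threshold. It was called without SF4 (adjusted p = 0.0281), with total counts alone (1.47, adjusted p = 0.0448) and by limma-voom and DESeq2, and each of these 4 settings gave 3 calls in the list. *MC2R*, *MC3R*, *MC4R*, *MC5R*, *MRAP*, *MRAP2*, *CORIN*, *PCSK1* and *PCSK2* were not analysed here.

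Downstream of melanocortin receptors, 23 genes of cAMP signalling were tested and 3 were called, 2 higher in SF and 1 in IMF, beside 8.82% of all genes. The split was 1 in SF and 2 in IMF with total counts alone and 1 and 3 by limma-voom, so neither the count nor its direction is read as a result about the list. *PDE4B*, which encodes a cAMP-degrading phosphodiesterase, had 322, 512, 369 and 320 counts in IMF and 20, 28, 22 and 25 in SF. Its mean was 16 ± 0.812 CPM against 1.17 ± 0.254 CPM in the SF clones (log2 fold change 3.77, SE 0.16, adjusted p = 4.77e-06). *PRKAR2B*, a regulatory subunit of protein kinase A, was higher in each SF clone, at 12.1 to 32.2 CPM against 7.42 to 9.36 CPM in IMF (log2 fold change -1.30, SE 0.26, adjusted p = 0.00791). *ADCY7*, an adenylyl cyclase gene, was higher in SF2, SF3 and SF4 (44.5 to 56.6 CPM) but not in SF1 (16.4 CPM) than in IMF (17.1 to 19.8 CPM). Its log2 fold change was -1.12 (SE 0.31, adjusted p = 0.0331), and the call was lost without any 1 clone other than SF1, with an adjusted p of 0.0672 to 0.0819, with total counts alone (-0.97, adjusted p = 0.0542) and by limma-voom. An adjusted p under 0.05 at any fold was reached by 8 of the 23 genes, 6 higher in SF and 2 in IMF, where 25.8% of all genes reached it. Of the 5 that were not called, named after their values were seen, *GNAS* lost it without any 1 clone but SF1 or SF3 (0.0510 to 0.126), *ADCY9* without any but IMF3 or SF3 (0.0545 to 0.0808), *PRKACB* without IMF4 (0.0520) and *PRKAR1A* without IMF2 (0.0508), while *PDE4A* did not lose it when 1 clone was left out. With total counts alone *ADCY7* (0.0542), *GNAS* (0.504), *ADCY9* (0.216), *PRKACB* (0.19) and *PDE4A* (0.0594), all higher in SF, did not reach it. *PRKAR2B*, *PDE4B* and *PRKAR1A* still did. *PDE3A*, higher in IMF and also named after its values were seen, reached it under that scaling (0.0318). The median log2 fold change of the list was 0.00 and its median size 0.34, beside 0.38 over all genes tested.

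A list of 25 paralogues and partners of the members was also compared, and 24 were tested. Besides *ATRNL1*, 2 were called. *HECW2*, which encodes a HECT-type ligase of the family of *ITCH*, had 46, 88, 58 and 69 counts in IMF and 2, 10, 0 and 8 in SF (log2 fold change 3.41, SE 0.74, adjusted p = 0.0120). *AHCYL2*, a relative of *AHCY*, had 328, 527, 347 and 306 counts in IMF and 997, 453, 741 and 483 in SF (log2 fold change -1.04, SE 0.23, adjusted p = 0.0132). It was no longer called without SF1 (-0.74), with total counts alone (-0.90), with clone number as a replicate block or by limma-voom. *AHCYL1*, the other relative, averaged 305 ± 6.43 CPM against 169 ± 33.5 CPM in the SF clones, a log2 fold change of 0.85 (SE 0.14, adjusted p = 0.00307). Thus *AHCY* and *AHCYL1* stood higher in IMF, and *AHCYL2* in SF.

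The other subunits of eIF2 lay on the same side as *EIF2S2*. *EIF2S1*, the alpha subunit, had a log2 fold change of 0.35 (SE 0.11, adjusted p = 0.0437), and *EIF2S3*, the gamma subunit, one of 0.38 (SE 0.11, adjusted p = 0.0318). The first lost its adjusted p under 0.05 without IMF1, IMF2, IMF3, SF1, SF2 or SF3 (0.0549 to 0.116), and the second without IMF1, IMF2 or IMF3 (0.0611 to 0.0886). *EIF2B2* and *EIF2B5*, subunits of the exchange factor of eIF2, were higher in IMF by 0.56 (adjusted p = 0.000546) and 0.43 (adjusted p = 0.00262). Its other subunits, *EIF2B1* (0.19, adjusted p = 0.171), *EIF2B3* (0.31, adjusted p = 0.0867) and *EIF2B4* (0.21, adjusted p = 0.0828), did not pass the p threshold. Among relatives of *ITCH*, *WWP2* (-0.31, adjusted p = 0.00803) and *SMURF1* (-0.49, adjusted p = 0.0136) were higher in SF, with adjusted p of 0.245 and 0.12 under total counts alone. *AHCYL1* and the genes of this paragraph other than the members were named after their values were seen. Of the 24 genes 3 were called, where 8.82% of all genes were. An adjusted p under 0.05 was reached by 12, 7 higher in IMF and 5 in SF, where 25.8% of all genes reached it, and the groups did not overlap for 17, where 32.1% of all genes did not. The split depended on scaling. With total counts alone *NEDD4L*, *WWP2* and *SMURF1*, higher in SF, no longer reached that p (0.12 to 0.245). *HNRNPC*, *EIF2B3*, *EIF2B4* and *MAT2A*, higher in IMF, then did (0.0228 to 0.0462).

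**Figure D4:**
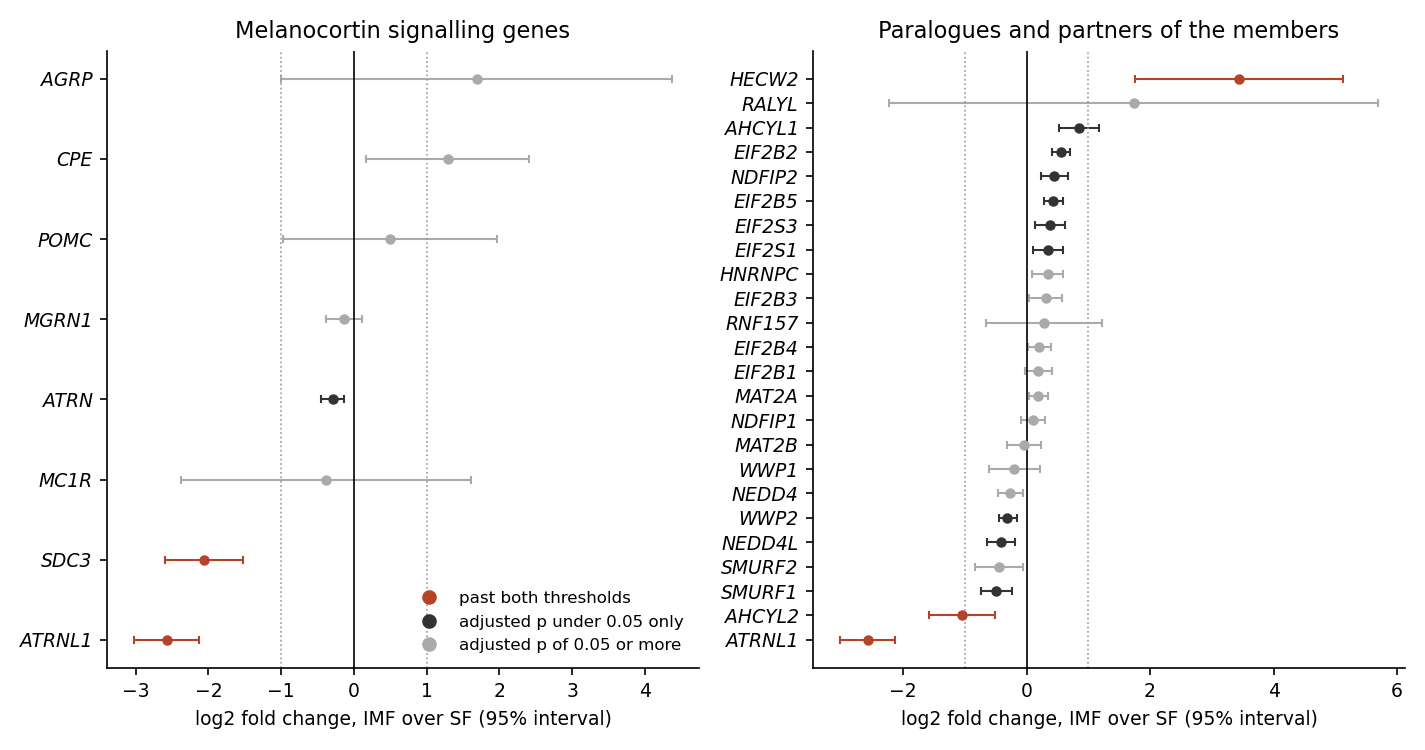
Log2 fold change, IMF over SF, with 95% interval for the 8 tested melanocortin genes (left) and the 24 tested paralogues and partners of the members (right), ordered by value. Dotted lines mark -1 and 1; *ATRNL1* and *SDC3* lie below -1 and *HECW2* above 1, while *MC1R*, *POMC* and *AGRP* have intervals that span 0.

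Agouti is made by dermal mesenchyme in the skin, so 15 genes known from that tissue and from the control of agouti and pigment were listed, and 9 were tested. Of these, 8 were called, 4 higher in SF and 4 higher in IMF, so the list did not move to one side; its median log2 fold change was 0.08. Without IMF2 or without IMF3 there were 5 calls, 3 higher in IMF and 2 in SF. Over all genes 8.82% were called, 4.04% higher in SF and 4.78% higher in IMF. *EN1*, a homeobox gene of ventral skin and of a dermal fibroblast lineage, had 86.5, 71.0, 70.9 and 57.3 CPM in SF1 to SF4 and 20.6 to 21.4 CPM in IMF (log2 fold change -1.76, SE 0.12, adjusted p = 3.36e-05). *NOG*, which encodes the BMP antagonist noggin, had 21.1, 25.6, 46.9 and 46.0 CPM in SF and 6.30 to 8.11 CPM in IMF (log2 fold change -2.25, SE 0.27, adjusted p = 0.000727). *BMP4*, a ligand that noggin binds, was on the other side, at 18 to 21.9 CPM in IMF and 1.85 to 2.31 CPM in SF (log2 fold change 3.28, SE 0.11, adjusted p = 2.89e-06).

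*TBX15*, a T-box gene that sets the border between dark and light fur in mice, had 16.5, 64.1, 39.5 and 24.3 CPM in SF1 to SF4 and 12.6 to 14.2 CPM in IMF. This gave a log2 fold change of -1.44 (SE 0.37, adjusted p = 0.0226), and the adjusted p was 0.0503 to 0.0595 without any 1 of the IMF clones. *TBX18*, its close relative, had 66.9, 30.9, 31.8 and 64.8 CPM in SF and 21.9 to 25.3 CPM in IMF (log2 fold change -1.08, SE 0.27, adjusted p = 0.0206). The call of *TBX18* was lost without IMF1, IMF2, IMF3 or SF4 (adjusted p 0.0506 to 0.0566) and without SF1 (log2 fold change -0.88). It was also lost with total counts alone (-0.91), with clone number as a replicate block and by limma-voom. The SF clones that were high for *TBX15* (SF2 and SF3) and for *TBX18* (SF1 and SF4) were not the pair that was high for *ASIP* (SF2 and SF4). The remaining genes called, *KITLG*, *BMP6* and *SOX18*, were higher in IMF and are named outside the rule for this list. *KITLG*, the ligand of the KIT receptor, stood at 8.48 ± 1.47 and 3.40 ± 0.864 CPM, and *SOX18*, also an endothelial transcription factor, had 255 to 337 counts in IMF and none in SF, at least 83.9-fold higher. *BMP6* had 282, 390, 271 and 259 counts in IMF and 114, 12, 17 and 20 in SF; its call was lost without IMF2, IMF3, SF3 or SF4 (adjusted p 0.0512 to 0.0581), and its log2 fold change of 2.63 was 4.00 without SF1.

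**Figure D5:**
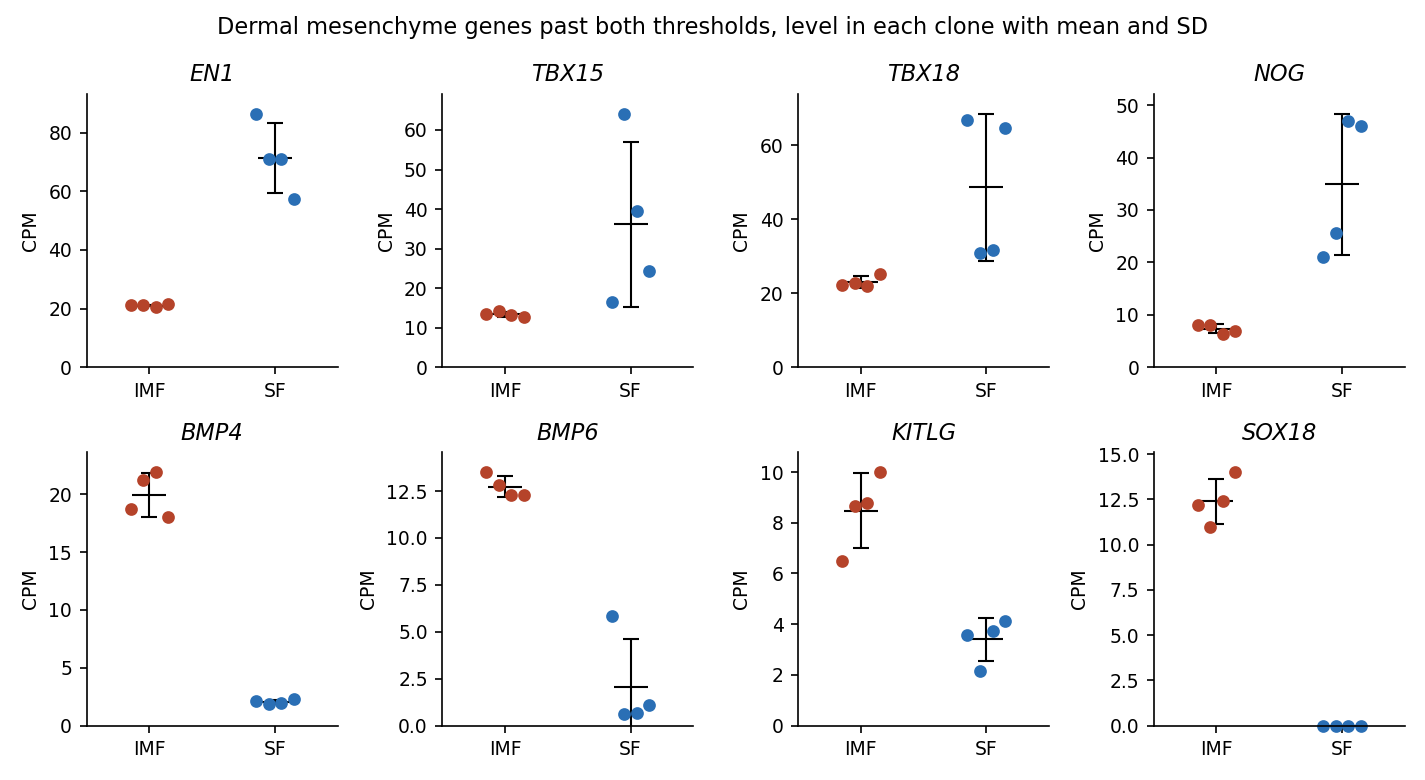
Level in CPM in each clone (points; linear axes from 0) with mean and SD of 4 IMF and 4 SF clones for the 8 called genes of the dermal mesenchyme list. *EN1*, *TBX15*, *TBX18* and *NOG* were higher in SF, with SF clones spread widely for *TBX15* (16.5 to 64.1 CPM), and *BMP4*, *BMP6*, *KITLG* and *SOX18* were higher in IMF.

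Markers of the skin's own cell types were measured in the same libraries. Of 14 melanocyte genes 4 were tested, with summed levels of 23.6 to 25.5 CPM in IMF and 17.2 to 31.7 CPM in SF. Most of this was *MITF*, at 21.4 ± 0.907 and 22.2 ± 7.60 CPM, and *PMEL* stood at 1.59 ± 0.330 and 2.05 ± 0.408 CPM. *EDNRB*, an endothelin receptor gene, had 13, 43, 39 and 41 counts in IMF and none in SF, at least 9.73-fold higher in IMF. *TYR*, *TYRP1*, *DCT* and *MLANA* were not analysed here. Of 8 keratinocyte markers 5 were tested, and *KRT5*, *KRT1* and *TP63* were not analysed here. *KRT14*, *KRT15* and *DSG3* were high in all 8 clones, from 506 CPM for *DSG3* in IMF2 to 8200 CPM for *KRT15* in IMF4. The other 2 tested, *KRT10* and *DSC3*, were low. *KRT10* averaged 2.13 ± 0.417 CPM in the IMF and 1.62 ± 0.326 CPM in the SF clones, and *DSC3* 3.29 ± 0.657 and 2.78 ± 1.73 CPM. Summed over 5 genes, keratinocyte markers were 8140 to 15000 CPM in IMF and 6540 to 11200 CPM in SF, and the groups overlapped. *KRT14*, a basal keratinocyte gene, was called higher in IMF (4660 ± 1230 against 2170 ± 708 CPM, log2 fold change 1.10, SE 0.28, adjusted p = 0.0227), a call lost without IMF2, IMF3, IMF4 or SF3 (adjusted p 0.0604 to 0.063) and without SF2 (log2 fold change 0.96).

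The genes most like *ASIP* across the clones were found by Pearson's r of log2 CPM over the 8 clones, among 15870 genes with a mean of at least 1 CPM in a group. As the clones fall into 2 groups and share their libraries, r describes mainly the group difference and carries no test. There were 333 genes with r of at least 0.95 and 19 with at least 0.99. The 10 highest were *CRABP2* (r = 0.9972), *SP9* (0.9966), *PHF13* (0.996), *VLDLR* (0.9956), *COL6A1* (0.9953), *FBXL4* (0.994), *CDH13* (0.9938), *COL6A2* (0.9932), *SEMA3C* (0.9925) and *TBX5* (0.992). Most differed less between groups than *ASIP*. *CRABP2*, a retinoic acid binding protein gene, was at 6.15 ± 0.878 CPM in SF and 1.99 ± 0.162 CPM in IMF, and *COL6A1*, a collagen VI gene, at 5020 ± 540.0 and 1740 ± 25.1 CPM. *SP9*, a zinc finger transcription factor gene, had 75, 124, 101 and 111 counts in SF and none in IMF, at least 38.9-fold higher in SF. *TBX5*, a limb patterning T-box gene, had 81, 97, 90 and 60 counts in SF and 1 in all IMF clones together. Of the other members *ATRN* had an r of 0.89 with *ASIP*, *ITCH* 0.59 and *MGRN1* 0.39, and *RALY*, *EIF2S2* and *AHCY* had -0.77, -0.79 and -0.99.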

How the data were processed

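RNA-seq libraries of 4 IMF and 4 SF preadipocyte clones were analysed. The authors deposited raw read counts per gene and clone with a gene length in bases. They trimmed reads with Trimmomatic 0.39 and counted genes with featureCounts 2.0.2 on ARS-UCD2.0; the aligner is HISAT2 in the study's methods and STAR 2.7.11a in the submitters' processing notes. The methods mention TPM, but the columns are whole numbers with unequal totals and were used as counts. The handling of multi-mapped reads is not given in the sources used here, and the sources differ on whether libraries were stranded, so reads shared with near-identical copies or with overlapping opposite-strand genes could not be told apart. Group means and a DESeq2 result (fold change, p-value, category) in the same table were not used. One row without a gene name (0.0148% to 0.0209% of counts per clone) was dropped.

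The test was edgeR 4.0.16 under R 4.3.3 (TMM, quasi-likelihood test, default prior count of 0.125 for printed log2 fold changes) over 18339 genes with a total count of at least 20; 532 genes fell under it. SEs and 95% intervals are Wald values from the same fit. Depth was 19654917 to 29308882 counts per clone. Fold changes against a group at 0 are lower bounds at 3 counts per clone. DESeq2 1.42.0, limma-voom (limma 3.58.1) and the other settings below were alternatives. Python 3.11.15 was used for tables. RefSeq positions were found for 14412 gene IDs, 212 by synonym. Per the study's methods the clones of a group came from separately isolated fat samples; neither these nor the labels name the steer of a clone, and p-values measure the spread between these clones.

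The members and lists were chosen with earlier results of these data known. Named genes were the 7 members, every gene placed within 0.5 Mb of *ASIP*, called genes within 1 Mb, tested melanocortin genes, at most 5 called genes per other list by level, and the 10 genes most correlated with *ASIP*. Exceptions are marked. No sequence was used here.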

Additional observations from a re-analysis of the deposited data

Results flagged for a closer look

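Over 102 groups of 4 clones, the IMF and SF groups of the genes that the naming rule gave, 1 clone stood apart from the other 3 by Dixon's ratio (past its 95% critical value) in 5, where about 1 in 20 would by chance. *GGT7*, 491.2 kb from *ASIP*, was at 0.568 CPM in SF3 and at 0.103 to 0.165 CPM in the other SF clones. *PIGU*, within 0.5 Mb of *ASIP*, was at 11.1 CPM in IMF3 and 11.6 CPM in the other IMF clones. *PRKAR2B* was at 7.42 CPM in IMF4 and 9.11 to 9.36 CPM in the other IMF clones. Among markers of other cell types, *DES* was at 85.2 CPM in IMF4 and 101 to 102 CPM in the other IMF clones, and *SELP* was at 0.0513 CPM in SF1 and listed at 0 in the other SF clones. No clone of *ASIP*, *RALY*, *EIF2S2*, *AHCY*, *ITCH*, *ATRN* or *MGRN1* stood apart in this way.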

How the results depend on the processing

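*AHCY* was called in all 18 alternatives (log2 fold change 1.25 to 1.45, adjusted p up to 0.00706), and the log2 ratio of mean *ASIP* levels stayed between -8.24 and -7.77. *RALY* passed the p threshold in none (0.11 to 0.30). *EIF2S2* passed it with upper quartile factors (0.23, adjusted p = 0.0496), total counts alone (0.37, adjusted p = 0.0269) and DESeq2 (0.21, adjusted p = 0.00714). With total counts alone, which shifts the median of all genes by 0.15 and the share of calls higher in IMF from 54.2% to 66.7%, *ITCH* turned to 0.06, *MGRN1* to 0.01 and *ATRN* to -0.15 without passing. A test against a 2-fold change (glmTreat) left *ATRN* at -0.29 with an adjusted p of 1.0 and called 631 genes in all (476 higher in IMF), 1 partner, 1 cAMP gene and 4 dermal mesenchyme genes; it tests a stricter hypothesis by construction. A 2 Mb window held 5 calls, and a 0.5 Mb window 2. Leaving out 1 clone gave log2 fold changes of 0.11 to 0.18 for *RALY*, 0.16 to 0.26 for *EIF2S2*, 1.25 to 1.34 for *AHCY*, -0.15 to -0.06 for *ITCH*, -0.33 to -0.28 for *ATRN* and -0.21 to -0.03 for *MGRN1*. It gave 1332 to 1643 calls in all, 3 within 1 Mb, 2 to 3 melanocortin genes, 2 to 3 partners, 2 to 4 cAMP genes and 5 to 8 dermal mesenchyme genes, the fewest without IMF2 or IMF3. DESeq2 called 1996 genes.

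IMF and SF clones share the numbers 1 to 4. Deviations of same-numbered clones had correlations of -0.0093 to 0.1387 (mean 0.0548, other pairs -0.0184), and 4 of 8 clones correlated best with their own number. As the deviations were taken from the group means, the mean for other pairs follows from that for same-numbered pairs. These values therefore cannot show whether same-numbered clones share a steer. No source states such a pairing, and the numbers were not taken as pairs in the main fit. With the number as a replicate block 1489 genes were called; *AHCY* had an adjusted p of 0.00171, *ATRN* 0.0465, *EIF2S2* 0.158, *RALY* 0.214, *ITCH* 0.47 and *MGRN1* 0.455. The block left 3 calls within 1 Mb, 2 melanocortin, 2 partner, 2 cAMP and 7 dermal mesenchyme genes, and *ZNF341* and *ADCY7* at adjusted p of 0.0539 and 0.074. Depth limits *ASIP* in IMF, where 1 to 5 reads per clone were counted, and *GGT7* in SF.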
